A study of Mus musculus with 12 samples.

Results

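The secretory pathway genes described here are 53 of the 23378 genes in the deposited table of estimated counts. They were chosen by gene symbol alone, as the genes for targeting proteins to the endoplasmic reticulum (ER), moving them across its membrane, trimming, glycosylating and folding them, and coating the vesicles that carry them away. By role they comprise 10 genes of the signal recognition particle and its receptor, 10 of the translocon, 5 of the signal peptidase, 7 of the oligosaccharyltransferase, 9 for folding and disulfide formation, and 12 of the COPII coat, counting Sec23ip, a protein that binds the coat subunit Sec23. All 53 passed the filter on low counts, which kept 14180 genes for testing.

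The libraries came from kidney cortex of C57BL/6 mice of the line nNosCreERT2-mTmG. In this line a tamoxifen-dependent Cre under the neuronal nitric oxide synthase gene turns cells from membrane tdTomato (red) to membrane eGFP (green), so every library here is from mice that carry both alleles. The sorted green cells served as macula densa cells, and those with the strongest red signal as controls meant to represent distal tubule and collecting duct epithelium. Mice ate a control diet for 14 days, or ate a low salt diet while drinking water with enalapril at 150 mg/L. Enalapril is a drug that blocks angiotensin-converting enzyme. Libraries of both diets are listed at day 14. Macula densa cells gave 2 libraries per diet and control cells 4 per diet, so that the 4 groups hold 12 libraries. The labels used here give no age and do not say how many animals a library came from, so p-values measure the spread between libraries, which may in part be technical. Low salt and enalapril were always given together, and their effects cannot be told apart.

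Secreted and membrane proteins begin at the ER. The signal recognition particle binds the signal peptide of a nascent chain and docks the ribosome, through its receptor, on the Sec61 channel, where signal peptidase removes the signal peptide and oligosaccharyltransferase attaches N-linked sugars. Calnexin and calreticulin hold glycoproteins while protein disulfide isomerases and the Ero1 oxidases form disulfide bonds, and the COPII coat then packs cargo into vesicles bound for the Golgi. Macula densa cells are salt-sensing epithelial cells of the distal thick limb, beside the glomerulus, that signal to the afferent arteriole and to renin-producing cells.

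Total counts per library were 4259020 to 14856542, of which nuclear protein-coding genes held 781257 to 2331481 and the 53 secretory genes 3826 to 17781. The single gene Gm42418 took 53.5% to 58.9% of the counts in macula densa libraries and 58.9% to 65.0% in control cells, and it stays in the totals behind every level here; its part in the results was not tested. The macula densa marker list (Nos1, Pappa2, Ptgs2, Slc12a1) summed to 2113 to 3057 CPM in the 4 macula densa libraries and to 42.1 to 431 CPM in the 8 control-cell libraries, where CPM is edgeR's count level scaled to library size. The control cells also held markers outside the distal nephron: 4 podocyte markers summed to 37.9 to 1218 CPM and 4 endothelial markers to 20.1 to 777 CPM, against 4.43 to 134 and 6.51 to 88.9 CPM in macula densa libraries. Thick ascending limb markers summed to 2193 to 3923 CPM in macula densa libraries and to 184 to 1375 CPM in control cells. Slc12a1 is in both this list and the macula densa list. Nos1 drove the Cre that marked the sorted cells, so its level is no independent check of their identity. Collecting duct principal cell markers summed to 89.3 to 677 CPM in control cells and to 7.66 to 29.0 CPM in macula densa libraries. Proximal tubule markers went the other way on control diet, at 101 and 167 CPM in macula densa libraries and 28.6 to 69.6 CPM in control cells. On low salt with enalapril they were 28.9 and 63.8 CPM against 3.99 to 43.2 CPM. Distal convoluted and connecting tubule markers overlapped, at 67.4 to 162 CPM in macula densa libraries and 59.0 to 618 CPM in control cells. Control-cell replicate 4 on control diet stood apart, with the lowest podocyte sum (37.9 CPM) and endothelial sum (20.1 CPM) and the highest collecting duct sum (677 CPM) of the control cells. The part of these other cell types in the results below was not tested, and in such bulk libraries fewer cells of a type and less RNA per cell cannot be told apart.

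Folding genes made up the largest share of the secretory transcripts in every group. Summed over all 53 genes, the macula densa level was 1453 ± 6.09 CPM (SD, n = 2) under control diet and 1251 ± 121 CPM (n = 2) under low salt with enalapril. Control cells reached 1235 ± 150 CPM (n = 4) and 948 ± 60.8 CPM (n = 4). These sums were 0.439% to 0.850% of all nuclear protein-coding counts. The 9 folding genes alone summed to 748 ± 3.76 CPM and 583 ± 146 CPM in macula densa cells on the 2 diets, and to 608 ± 106 CPM and 399 ± 48.6 CPM in control cells. Under salt restriction with enalapril the 4 control-cell sums for folding (337 to 456 CPM) lay below all other libraries in CPM, the macula densa libraries on the same diet being at 479 and 686 CPM. As a share of nuclear protein-coding counts they did overlap: the 4 were 0.165% to 0.254%, the macula densa libraries on that diet 0.222% and 0.338%, and control cells on control diet 0.254% to 0.392%.

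**Figure D1:**
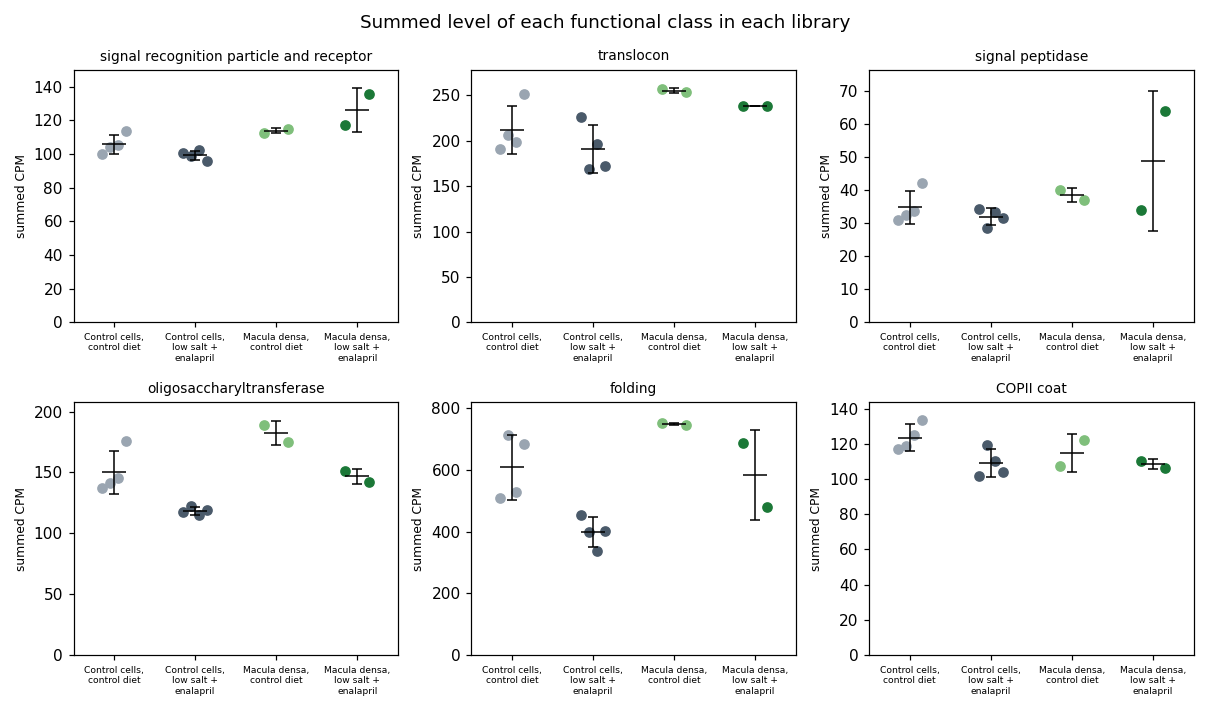
Summed CPM of each functional class (y axis, starting at 0) in each of the 4 groups (x axis); points are libraries, the bar is the mean and the whiskers are 1 SD. Folding sums in control cells were 508 to 713 CPM on control diet and 337 to 456 CPM on low salt with enalapril, and the oligosaccharyltransferase sums were 137 to 176 CPM and 115 to 123 CPM.

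Per kilobase of exon, the order of levels over the 4 groups was led by the lectin chaperone Calr at 62.1 CPM per kb, followed by its membrane-bound relative Canx at 35.1, the disulfide isomerase P4hb at 27.3, the translocon gene Sec62 at 24.5, the isomerase Pdia4 next to it, and Pdia3 at 21.4 CPM per kb. Libraries of neighbouring genes in that order overlapped: Calr ranged from 27.6 to 102 CPM per kb and Canx from 20.6 to 45.8. At the low end stood Ero1lb at 0.417, the channel subunit Sec61g at 0.456, the COPII cage gene Sec31b at 0.476, Srp9 at 0.541 and Sec61a2 at 0.584 CPM per kb. These 5 genes had between 3 and 59 counts in a library.

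Macula densa cells were compared with control cells over both diets to ask which secretory genes differ between the sorted populations. Of the 53 genes, 9 (17%) were higher in macula densa cells at an edgeR adjusted p under 0.05 and 0 were lower, where 7.48% of all 14180 genes were called higher and 13.9% lower. Fitted fold changes were above 0 for 39 of the 53 (73.6%), against 46.0% of all genes, and the median log2 fold change was 0.25, against -0.06 over all genes. At an unadjusted p under 0.05, 19 (35.8%) were higher and 3 (5.66%) lower, against 13.0% and 21.4% of all genes. The called genes were spread over roles: Ero1lb, Pdia3 and Canx in folding, Ssr4 and Sec61a2 in the translocon, Stt3a and Ddost in the oligosaccharyltransferase, Srpr in targeting and Sec24d in the coat, with none of the signal peptidase. In 9 of the 53 (17%) all macula densa libraries exceeded all control-cell libraries on each diet, against 6.02% of all genes, and in 0 of the 53 the control cells exceeded them in this way, against 7.60%.

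**Figure D2:**
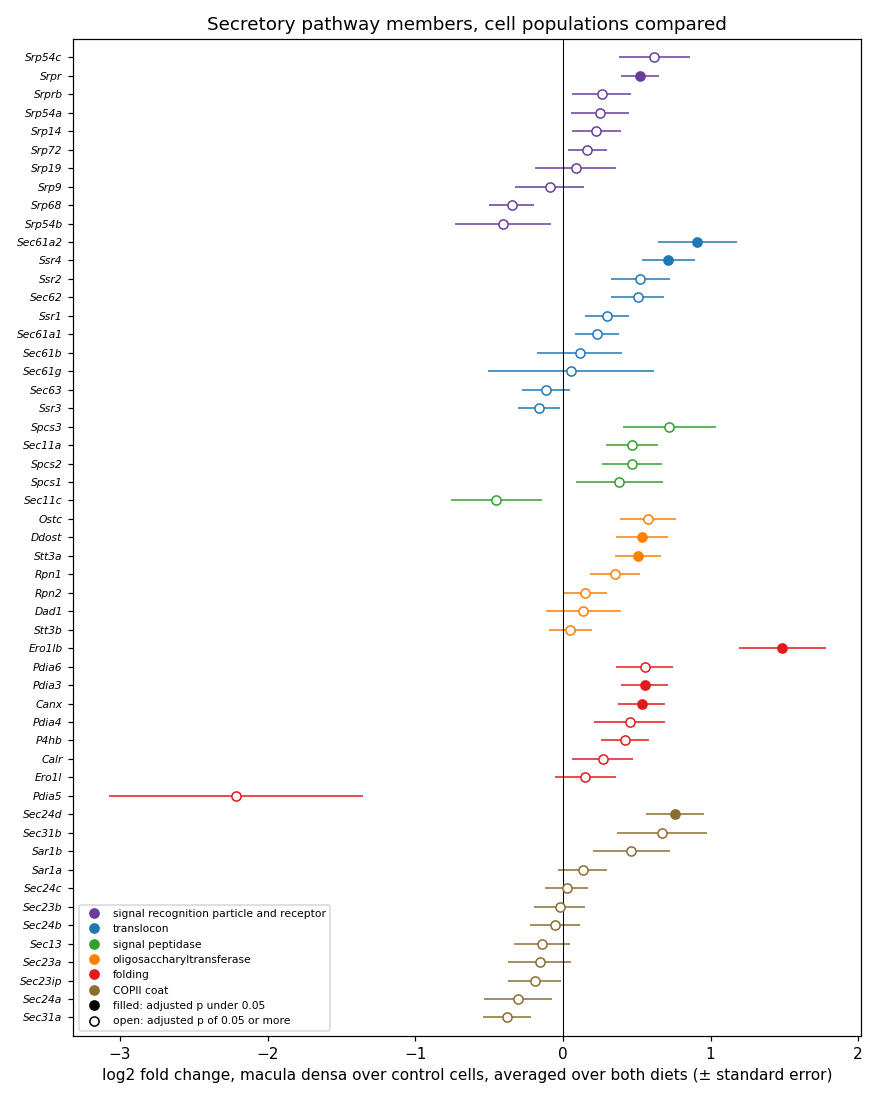
Log2 fold change of macula densa over control cells averaged over both diets (x axis) for each of the 53 genes (y axis), with bars of 1 standard error from the edgeR fit. The 9 filled points, from 0.51 (Stt3a) to 1.49 (Ero1lb), had an adjusted p under 0.05, and all lay to the right of 0.

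The count of 9 depended on single libraries: it rose to 14 when control-cell replicate 4 of the control diet was left out and fell to 2 without macula densa replicate 1 or 2 on control diet or replicate 2 on low salt with enalapril. It was 4 without control-cell replicate 1 or 2 on control diet or replicate 4 on low salt with enalapril, and 5 without replicate 3 on control diet or replicate 2 on low salt with enalapril. Scaling by library totals alone moved the median of all genes by 0.20 and gave 18 called genes, while the genes' median minus that of all genes stayed close, at 0.32 against 0.31.

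On each diet alone the counts were small. On control diet 1 of 53 (1.89%) was called higher, Ero1lb, and 0 lower, with 2.69% and 3.92% of all genes. Fitted values were above 0 for 35 of 53 (66%, against 46.9% of all genes), and the median log2 fold change was 0.16 against -0.05 over all genes; without single libraries it was 0.15 to 0.27, the last without control-cell replicate 2 on that diet. With low salt and enalapril 2 of 53 (3.77%) were called higher, Sec24d and Srp54c, and 0 lower, with 3.15% and 4.13% of all genes. Here 39 of 53 values were above 0 (73.6%, against 46.5% of all genes), and the median was 0.47 against -0.06. Without single libraries this median was 0.26 to 0.47, and the lowest value came without macula densa replicate 1 on that diet. Macula densa libraries lay above all control-cell libraries of the same diet in 14 of 53 genes (26.4%) on control diet, with 15.2% of all genes, and in 24 of 53 (45.3%) on low salt with enalapril, with 15.3% of all genes. They lay below all of them in 3 genes (5.66%) and 4 genes (7.55%), against 16.7% and 19.5% of all genes. The difference between the diets was tested per gene and is given below.

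Of the 10 targeting genes, 1 was higher in macula densa cells over both diets, against 7.48% of all genes. The other 9 did not pass the test. Srpr (chromosome 9, 35200175 to 35247973) encodes the alpha subunit of the receptor on the ER membrane to which the signal recognition particle docks. It measured 21.9 and 24.9 CPM in the macula densa libraries on control diet and 19.0 and 26.1 CPM on low salt with enalapril. In control cells it measured 16.9, 17.9, 17.6 and 18.1 CPM on control diet and 14.1, 14.0, 14.7 and 15.3 CPM on low salt with enalapril. All macula densa libraries were above all control-cell libraries of either diet, and the log2 fold change was 0.52 ± 0.13 (SE, edgeR adjusted p = 0.0150). The call was lost without macula densa replicate 2 on control diet (adjusted p = 0.0849) or on low salt with enalapril (0.0900). Its partner subunit Srprb had a log2 fold change of 0.26 ± 0.20 that did not pass (adjusted p = 0.382). Counts of Srpr were not whole in any library, so its value is uncertain.

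Srp54 encodes the GTPase that holds the signal peptide, and the mouse genome carries 3 near-identical copies. Their counts were not whole in any library, so the value of each copy is uncertain. Of these, Srp54c (chromosome 12, 55230168 to 55263836) was higher in macula densa cells on low salt with enalapril, at 9.96 and 20.8 CPM against 7.30, 3.18, 6.51 and 7.02 CPM in control cells. Both macula densa values were above all 4 control-cell values, and they lay far from each other. The log2 fold change was 1.33 ± 0.34 (SE, edgeR adjusted p = 0.0381). Srp54a, the copy with the largest level of the targeting genes, measured 28.2 ± 5.16 CPM (SD, n = 2) against 19.0 ± 5.27 CPM (n = 4), and Srp54b 2.83 ± 0.0600 against 5.25 ± 1.59 CPM. Neither passed the test on this diet, with log2 fold changes of 0.58 and -0.89 (edgeR adjusted p = 0.214 and 0.272). With the 3 copies summed, an alternative chosen after the data were seen, the log2 fold change was 0.62 (edgeR adjusted p = 0.112), so the call for Srp54c did not carry over to the family. The Srp54c call was also lost without any of 9 of the 12 libraries and was kept only without control-cell replicate 1 or 4 on control diet or macula densa replicate 1 on low salt with enalapril. Its lowest log2 fold change, 0.66 (adjusted p = 0.422), came without macula densa replicate 2 on that diet.

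The other signal recognition particle genes lay on both sides of 0. Srp72 and Srp68, which form the dimer at the particle's core, had log2 fold changes of 0.17 and -0.35, and Srp14 and Srp9, which form the dimer that slows elongation, had 0.23 and -0.09. None of these passed over both diets (edgeR adjusted p = 0.415, 0.125, 0.362 and 0.832). For Srp9 the average hides values of opposite sign, 0.75 ± 0.31 on control diet and -0.93 ± 0.35 on low salt with enalapril (edgeR adjusted p = 0.160 and 0.125). Its counts were 11 to 59 per library and were not whole in 11 of 12 libraries.

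In the translocon 2 of 10 genes were higher in macula densa cells (against 7.48% of all genes) and 8 did not pass the test. Ssr4 (chromosome X, 73787028 to 73790830) encodes the delta subunit of the translocon-associated protein complex, which sits beside the channel. It measured 7.39 and 5.78 CPM in macula densa cells on control diet and 6.51 and 7.87 CPM on low salt with enalapril. Control cells held 2.62, 4.04, 3.81 and 3.62 CPM and 5.46, 4.41, 4.83 and 5.09 CPM on the same diets. The macula densa libraries were above all control-cell libraries, and the log2 fold change was 0.71 ± 0.18 (SE, edgeR adjusted p = 0.0153). It did not pass without macula densa replicate 1 on control diet (adjusted p = 0.0929) or replicate 2 on low salt with enalapril (0.0733). The other 3 subunits of the complex did not pass: log2 fold changes were 0.30 for Ssr1, 0.52 for Ssr2 and -0.16 for Ssr3 (edgeR adjusted p = 0.179, 0.0849 and 0.464).

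The channel itself is built from an alpha subunit, of which there are 2 forms, and the small beta and gamma subunits. Sec61a2 (chromosome 2, 5870987 to 5895432), the less abundant alpha form, measured 3.08 and 3.58 CPM in macula densa cells on control diet and 3.45 and 3.94 CPM on low salt with enalapril. In control cells it measured 1.42, 1.50, 2.19 and 2.27 CPM and 2.46, 1.71, 1.05 and 2.03 CPM. Groups did not overlap on either diet, and the log2 fold change was 0.91 ± 0.27 (SE, edgeR adjusted p = 0.0304). The call was kept without control-cell replicate 3 or 4 on control diet or replicate 1 or 3 on low salt with enalapril and lost without any of the other 8 libraries (adjusted p = 0.0524 to 0.116). The gene shares 909 exon bases with Nudt5 on the opposite strand, and whether the counting used strand is not given in the sources used here, so its value is uncertain. Nudt5 itself had a log2 fold change of 0.25 (adjusted p = 0.736).

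The main alpha form Sec61a1 lay at 16.3 ± 1.53 CPM (SD, n = 2) for macula densa and 13.0 ± 0.982 CPM (n = 4) for control cells on control diet, and its log2 fold change over both diets was 0.23 (edgeR adjusted p = 0.298). Sec62, which with Sec63 serves proteins that enter the ER after translation, had the largest level of the translocon genes, with 128 to 131 CPM and 113 to 126 CPM in macula densa cells against 76.9 to 129 and 67.8 to 107 CPM in control cells. Its ranges overlapped on control diet, where control-cell replicate 4 was the high library, and its log2 fold change of 0.51 ± 0.18 lay just outside the threshold (edgeR adjusted p = 0.0630). Sec63 had -0.11 ± 0.16 (adjusted p = 0.667).

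No signal peptidase gene passed between the populations. Sec11a, one of the 2 catalytic forms, measured 8.82 to 12.1 CPM and 11.5 to 11.6 CPM in macula densa cells against 7.42 to 8.37 and 6.37 to 11.1 CPM in control cells, with no overlap on either diet and a log2 fold change of 0.47 ± 0.18 (edgeR adjusted p = 0.0790). The other catalytic form, Sec11c, had -0.45 ± 0.31 (adjusted p = 0.333). Spcs3 had the largest level of the class. With enalapril and low salt its 2 macula densa libraries were 6.13 and 27.2 CPM, one below and one above all 4 control-cell libraries (6.61 to 12.4 CPM), and its log2 fold change over both diets was 0.72 ± 0.32 (edgeR adjusted p = 0.126).

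Among the 7 oligosaccharyltransferase genes 2 were higher in macula densa cells, and all 7 fitted values were above 0, from 0.05 to 0.58 (6 without macula densa replicate 1 on low salt with enalapril and 5 without replicate 2). Stt3a (chromosome 9, 36729344 to 36767679) encodes the catalytic subunit of the complex bound to the translocon, which glycosylates chains as they enter. It measured 22.9 and 26.4 CPM in macula densa cells on control diet, above all 4 control-cell libraries (18.8, 17.8, 19.1 and 18.1 CPM). Under low salt with enalapril the values were 13.8 and 20.7 CPM and 11.5, 9.06, 14.3 and 10.7 CPM, and here the lower macula densa library fell inside the control-cell range. The log2 fold change over both diets was 0.51 ± 0.16 (SE, edgeR adjusted p = 0.0385). Its call was kept without macula densa replicate 1 on low salt with enalapril, control-cell replicate 3 on that diet or control-cell replicate 4 on control diet, and lost without any of the other 9 libraries (adjusted p = 0.0567 to 0.226).

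Ddost (chromosome 4, 138304730 to 138312628), a non-catalytic subunit that both forms of the enzyme share, measured 14.0 and 10.5 CPM in macula densa cells on control diet and 11.1 and 10.5 CPM on low salt with enalapril. Control cells held 8.64, 9.49, 7.43 and 8.26 CPM and 8.99, 6.37, 5.25 and 8.65 CPM. The groups did not overlap, and the log2 fold change of 0.54 ± 0.18 was just inside the threshold (edgeR adjusted p = 0.0488), which it missed without any 1 library other than control-cell replicate 1 on low salt with enalapril (adjusted p = 0.0502 to 0.215). Ostc, a subunit of the Stt3a form, lay just outside the threshold with 0.58 ± 0.19 (adjusted p = 0.0509). Rpn1, the gene of this class with the largest level, had 0.35 ± 0.17 (adjusted p = 0.170), and Stt3b, the catalytic subunit that acts on sites skipped during entry, had 0.05 ± 0.14 (adjusted p = 0.850).

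The promoters of the members were searched for the ER stress response element, the sequence through which ATF6 and NF-Y act on chaperone genes. The 53 genes include such chaperone genes by choice. The share with the element therefore describes that choice and is not a finding of these libraries. Promoter windows from 250 bases before to 50 after the RefSeq start (GRCm38.p6) were found for 46 of the 53 genes. The element, spelled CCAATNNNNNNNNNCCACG and searched on both strands, was present in 4 of them (8.70%), against 0.137% of 27025 genes with a window. These 4 were Calr, Canx, Ero1lb and Pdia6, all of the folding class. They are shown as the members whose promoters hold the element. The lines below give each gene-strand sequence with 15 bases on either side, and capitals mark the fixed letters of the element or of its reverse complement. The Calr window is chr8:84847060-84847108 (minus strand), Canx chr11:50325785-50325833 (minus), Ero1lb chr13:12565667-12565715 (plus) and Pdia6 chr12:17266476-17266524 (plus).
Calr: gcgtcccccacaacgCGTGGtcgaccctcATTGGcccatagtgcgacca
Canx: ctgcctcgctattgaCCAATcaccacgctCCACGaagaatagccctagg
Ero1lb: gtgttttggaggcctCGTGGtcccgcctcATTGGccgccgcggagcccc
Pdia6: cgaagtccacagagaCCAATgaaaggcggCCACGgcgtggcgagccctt

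Folding and disulfide formation held the gene with the largest called difference. Ero1lb (chromosome 13, 12565874 to 12611396; also named Ero1b) encodes an oxidase that recharges protein disulfide isomerases and is best known from insulin-producing cells. It measured 5.23 and 3.91 CPM in macula densa cells on control diet and 4.79 and 2.46 CPM on low salt with enalapril. In control cells the values were 2.08, 0.940, 1.43 and 1.55 CPM and 1.31, 1.96, 1.05 and 1.32 CPM. All macula densa libraries exceeded all control-cell libraries, by a fitted 2.80-fold over both diets (log2 fold change 1.49 ± 0.29, SE, edgeR adjusted p = 0.00467). The call was kept without each of the 12 libraries in turn. On control diet alone the log2 fold change was 1.60 ± 0.40 (edgeR adjusted p = 0.0349), a call lost without either macula densa library on that diet or without control-cell replicate 2 or 3 (adjusted p = 0.0799 to 0.189), and on low salt with enalapril it was 1.37 ± 0.43 (adjusted p = 0.0739). The gene is of low abundance, with 5 to 51 counts per library. Its relative Ero1l, found in most cells, had 0.15 ± 0.21 (adjusted p = 0.647).

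Pdia3 (chromosome 2, 121413775 to 121438687) encodes the isomerase that works on glycoproteins held by calnexin and calreticulin. It measured 89.6 and 81.1 CPM in macula densa cells on control diet and 90.8 and 56.9 CPM on low salt with enalapril. Control cells held 57.6, 64.4, 60.0 and 79.9 CPM and 47.3, 48.2, 37.2 and 45.9 CPM. Within each diet the macula densa libraries were the higher ones, and the log2 fold change was 0.55 ± 0.16 (SE, edgeR adjusted p = 0.0287). The call was kept without macula densa replicate 2 or control-cell replicate 1, 2 or 3 on low salt with enalapril or control-cell replicate 4 on control diet, and was lost without any of the other 7 libraries (adjusted p = 0.0509 to 0.166).

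Canx (chromosome 11, 50293961 to 50325673), the membrane-bound lectin chaperone, measured 209.9 and 215 CPM in macula densa cells on control diet and 186 and 168 CPM on low salt with enalapril. In control cells it measured 126, 170.4, 129 and 195 CPM and 139, 96.5, 117 and 110.2 CPM. The populations did not overlap on either diet, with a log2 fold change of 0.53 ± 0.16 (SE, edgeR adjusted p = 0.0341). The call stood without control-cell replicate 4 of the control diet or replicate 1 or 3 of low salt with enalapril and fell without any of the other 9 libraries (adjusted p = 0.0551 to 0.134).

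The soluble chaperone Calr did not pass between populations, with a log2 fold change of 0.27 ± 0.21 (edgeR adjusted p = 0.387). Neither did the isomerases P4hb (0.42 ± 0.16), Pdia4 (0.45 ± 0.24) and Pdia6 (0.56 ± 0.19), with edgeR adjusted p = 0.0825, 0.205 and 0.0594. Pdia6 libraries nevertheless did not overlap between populations on either diet. Pdia5 was the only folding gene with a negative value, -2.21 ± 0.86 (adjusted p = 0.0876). Its control-cell libraries were scattered, at 7.11, 6.01, 4.67 and 0.517 CPM on control diet and 1.69, 4.90, 0 and 6.10 CPM on low salt with enalapril, against 1.23 and 0.326 and 0.575 and 1.15 CPM in macula densa cells. The lowest control-diet value belonged to control-cell replicate 4, the library with the lowest podocyte and endothelial marker sums of that group. In the control-cell libraries on low salt with enalapril, in the same order as the values above, podocyte sums were 120, 963, 192 and 812 CPM. The part of these cell types in the Pdia5 values was not tested.

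In the COPII coat 1 of 12 genes was higher in macula densa cells, against 7.48% of all genes. The class had a median log2 fold change of -0.04, which was 0.16 with scaling by library totals alone. Sec24d (chromosome 3, 123267455 to 123365641) encodes one of 4 forms of the subunit that binds cargo. On control diet it measured 6.16 and 5.21 CPM in macula densa cells and 3.50, 4.51, 4.19 and 5.58 CPM in control cells, and these ranges overlapped. On low salt with enalapril it measured 7.47 and 10.2 CPM and 3.69, 2.94, 4.62 and 4.37 CPM, with no overlap. The log2 fold change was 0.76 ± 0.20 (SE, edgeR adjusted p = 0.0168) over both diets and 1.17 ± 0.28 (adjusted p = 0.0288) on low salt with enalapril. The first call was lost without either macula densa library on control diet or without replicate 2 on low salt with enalapril (adjusted p = 0.0523 to 0.0939). The second was kept only without control-cell replicate 1, 3 or 4 on control diet or replicate 3 on low salt with enalapril (adjusted p = 0.0503 to 0.243 without each of the other 8).

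The other cargo-binding forms had log2 fold changes of -0.31 (Sec24a), -0.05 (Sec24b) and 0.03 (Sec24c), none past the threshold (edgeR adjusted p = 0.383, 0.869 and 0.924). Sec31a, the outer cage subunit with the largest level of the coat, had the lowest value of the class, -0.38 ± 0.16 (adjusted p = 0.118). The inner coat genes Sec23a and Sec23b and the GTPase Sar1a lay between -0.16 and 0.13.

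**Figure D3:**
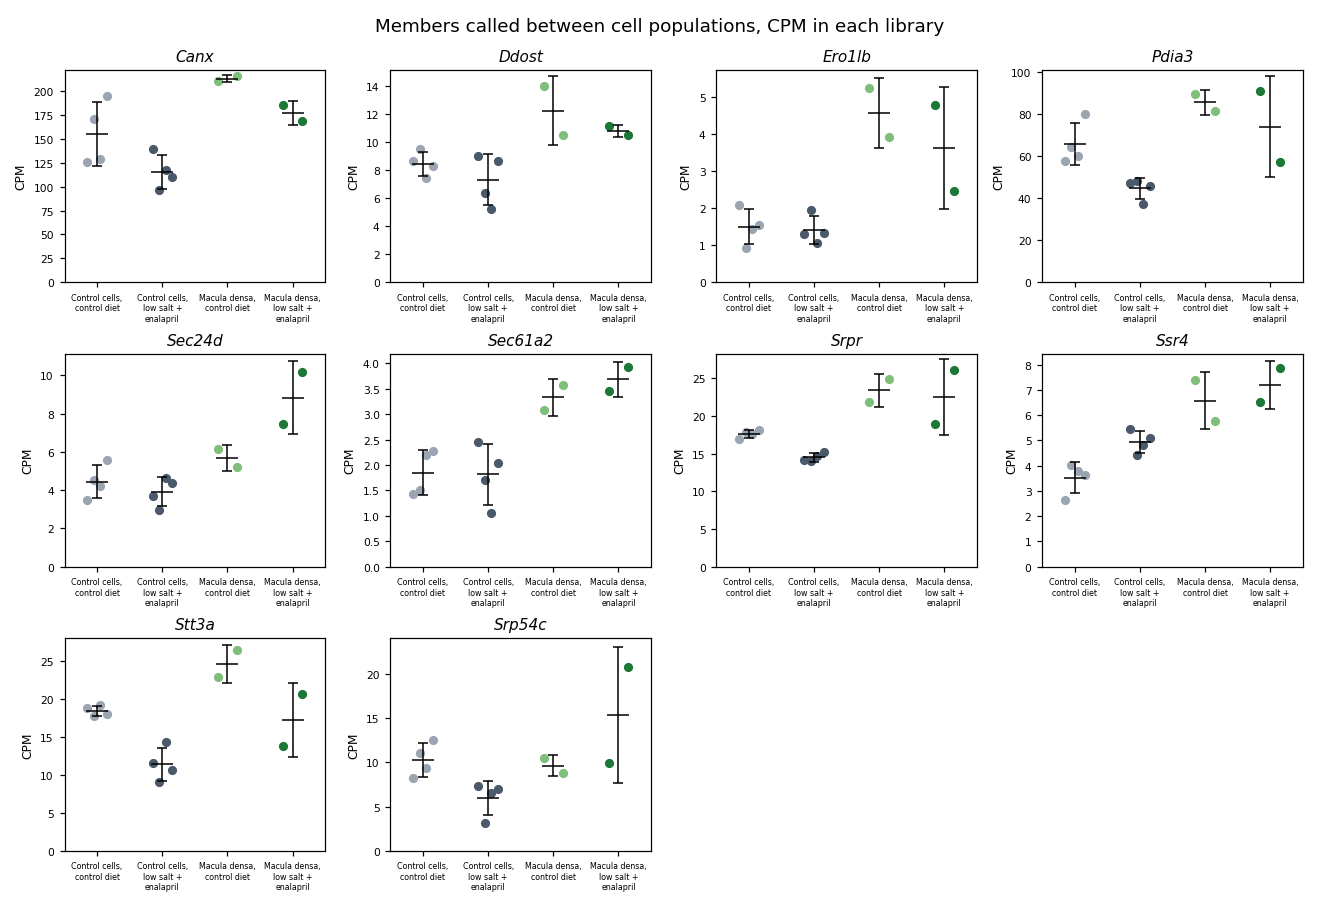
CPM (y axes, starting at 0) of the 9 genes called over both diets and of Srp54c, called on low salt with enalapril, in each library of the 4 groups (x axis); bars are means and whiskers 1 SD. Ero1lb was 2.46 to 5.23 CPM in macula densa libraries and 0.940 to 2.08 CPM in control cells.

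The diets were then compared within each population, to ask whether salt restriction with enalapril moved the secretory genes. In control cells 0 of 53 genes passed edgeR's adjusted p of 0.05, where 1 of all 14180 genes, the renin gene Ren1, was called higher (0.00705%). At an unadjusted p under 0.05, 2 genes were higher and 10 (18.9%) lower on low salt with enalapril, against 4.01% and 2.44% of all genes. Fitted values were below 0 for 42 of the 53 (79.2%), against 54.2% of all genes, and for 36 to 45 of them when each library was left out in turn. The median log2 fold change was -0.15, against -0.04 over all genes, and without single libraries it was -0.22 (without control-cell replicate 2 on low salt with enalapril) to -0.07 (without replicate 4 on that diet). The 4 libraries of each diet did not overlap in 12 genes, with 10 (18.9%) lower and 2 (3.77%) higher on low salt with enalapril, against 2.09% and 2.10% of all genes. All 9 folding genes and all 12 coat genes had values below 0, with medians of -0.52 and -0.15. With DESeq2 size factors these were 9 and 11, and without single libraries 8 or 9 of the folding genes and 8 to 12 of the coat genes stayed below 0. The summed counts of the 53 genes were 9914 to 14013 per control-cell library on control diet and 3826 to 13475 on low salt with enalapril, and the part of this depth gap was not tested.

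Calr had the smallest p-value of the 53 in control cells. It measured 176, 295, 179 and 232 CPM on control diet and 122, 123, 79.6 and 111 CPM on low salt with enalapril. The 2 sets did not overlap, and the fitted value was -1.02 ± 0.24 on the log2 scale (SE, edgeR unadjusted p = 0.00122, adjusted p = 0.360). DESeq2, run as an alternative, called it lower (adjusted p = 0.0256), and it was the only gene of the 53 that DESeq2 called between the diets in control cells. In macula densa cells Calr measured 244 and 241 CPM on control diet and 185 and 103 CPM on low salt with enalapril (-0.76 ± 0.34, edgeR adjusted p = 0.442). These libraries did not overlap either, but with 2 libraries per diet 3087 of all 14180 genes were lower without overlap.

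Stt3a came next in control cells, with the values given above for both diets and no overlap between them (-0.69 ± 0.19 on the log2 scale, edgeR unadjusted p = 0.00291, adjusted p = 0.448). Pdia6 measured 20.9, 31.9, 26.2 and 31.1 CPM on control diet and 19.0, 19.8, 10.1 and 18.1 CPM on low salt with enalapril, also without overlap (-0.71 ± 0.23, unadjusted p = 0.00899, adjusted p = 0.613). In macula densa cells Pdia6 was 33.9 and 32.7 CPM and 34.3 and 25.8 CPM, and these libraries overlapped. The remaining 7 genes at an unadjusted p under 0.05 and lower on low salt with enalapril were Pdia3 (-0.55), Sec24c (-0.48), Rpn1 (-0.57), Srp54c (-0.75), Pdia4 (-0.65), Canx (-0.42) and Spcs2 (-0.52), and the 2 higher ones were Srp9 (0.67) and Ssr4 (0.49). Podocyte markers in control cells summed to 37.9 to 1218 CPM on control diet and 120 to 963 CPM on low salt with enalapril, and smooth muscle and renin cell markers to 99.9 to 165 and 139 to 527 CPM; their part in the diet values was not tested.

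**Figure D4:**
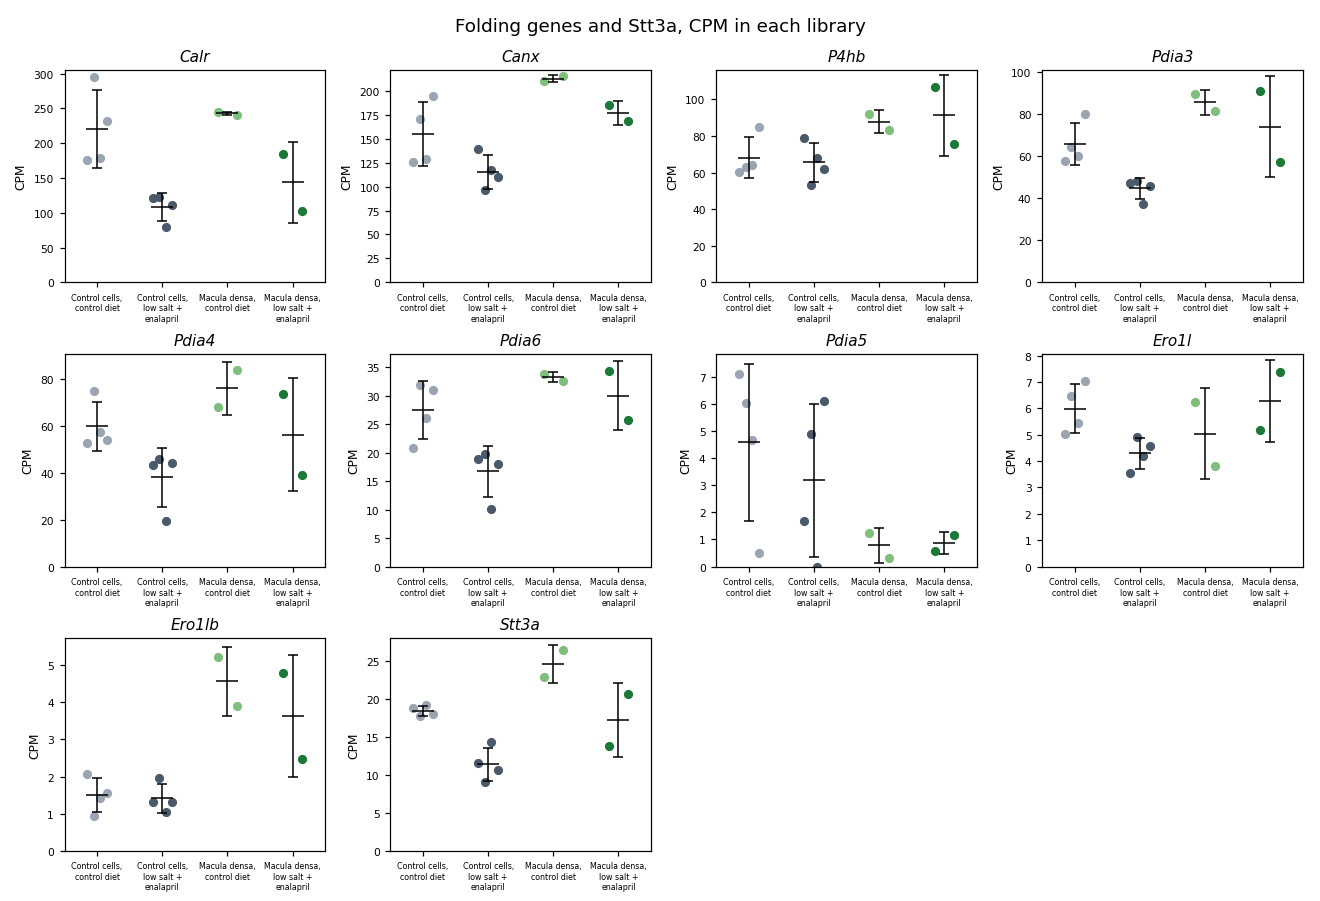
CPM (y axes, starting at 0) of the 9 folding genes and Stt3a in each library of the 4 groups (x axis); bars are means and whiskers 1 SD. For Calr, control cells lay at 176 to 295 CPM on control diet and at 79.6 to 123 CPM on low salt with enalapril, and no folding gene passed the adjusted threshold between diets in the edgeR fit.

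In macula densa cells, with 2 libraries per diet, 0 of 53 genes and 0% of all genes passed edgeR's adjusted threshold between diets. At an unadjusted p under 0.05, 0 genes were higher (5.51% of all genes) and 4 were lower (7.55%, against 5.73% of all genes): Sec61b, Srp9, Dad1 and Calr. DESeq2 called 0 of the 53. Sec61b, the beta subunit of the channel, measured 4.72 and 3.99 CPM on control diet and 2.11 and 1.48 CPM on low salt with enalapril (-1.28 ± 0.47 on the log2 scale, edgeR unadjusted p = 0.0181, adjusted p = 0.360). Dad1, a small oligosaccharyltransferase subunit, measured 5.95 and 5.95 CPM and 1.72 and 4.10 CPM (-1.01 ± 0.41, adjusted p = 0.398). Values were above 0 for 25 of the 53 (47.2%, against 48.5% of all genes) and below 0 for 28, with a median of -0.05 against -0.02 over all genes (-0.15 without macula densa replicate 1 on low salt with enalapril). Thick ascending limb markers in macula densa cells summed to 3087 and 3923 CPM on control diet and to 2193 and 2267 CPM on low salt with enalapril, and proximal tubule markers to 101 and 167 CPM and to 28.9 and 63.8 CPM; their part in these diet values was not tested. In neither population does the count of 0 show that levels did not differ, since smaller changes can go uncalled at this number of libraries.

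Whether the diet effect differed between the populations was tested as the difference of the 2 diet effects. By this test 0 of 53 genes and 0% of all genes passed the adjusted threshold, and at an unadjusted p under 0.05 1 was higher (1.89%, against 3.48% of all genes) and 1 lower (1.89%, against 3.55%). Values were above 0 for 38 of the 53 (71.7%, against 49.5% of all genes), and for 28 to 38 of them without single libraries. The lower one was Srp9, which measured 3.08 and 4.81 CPM in macula densa cells on control diet and 2.11 and 1.80 CPM on low salt with enalapril. Its control-cell values were 2.51, 2.72, 2.38 and 1.76 CPM and 3.92, 4.16, 3.78 and 3.15 CPM, so the diets lay in opposite orders in the 2 populations. The difference of the effects was -1.68 ± 0.47 on the log2 scale (SE, edgeR unadjusted p = 0.00368, adjusted p = 0.558). The higher one was Srp54c (1.43 ± 0.49, adjusted p = 0.640), followed by Sec24d (0.82 ± 0.40, adjusted p = 0.729). The median over the 53 genes was 0.18, and 0.01 to 0.24 without single libraries, the lowest again without macula densa replicate 1 on low salt with enalapril.

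In the 4 promoters printed above, the ER stress response element lay between 201 and 80 bases before the start and ran in the gene's direction in Canx and Pdia6 and in reverse in Calr and Ero1lb. The 4 genes had fitted values above 0 in the cell comparison over both diets, from 0.27 (Calr) to 1.49 (Ero1lb), and below 0 in the diet comparison of each population. Among folding genes with no element found, the cell comparison was also above 0 for Pdia3 (0.55), Pdia4 (0.45), P4hb (0.42) and Ero1l (0.15). It was below 0 for Pdia5 (-2.21). In control cells the diet values of the 4 were -1.02 (Calr), -0.42 (Canx), -0.10 (Ero1lb) and -0.71 (Pdia6), and folding genes without an element in a window or without a window had -0.55 (Pdia3), -0.65 (Pdia4), -0.52 (Pdia5), -0.49 (Ero1l) and -0.05 (P4hb). Of the 4, Ero1lb and Canx were called between populations and none between diets in the edgeR fit. A pair of further motifs was searched on both strands. The second ER stress element (ERSE-II), ATTGG and CCACG with 1 base between, was in none of the 46 windows and in 0.0444% of all genes, and the unfolded protein response element TGACGTGG was in Sec24d, before its RefSeq start but inside the gene as GENCODE M21 places it, and in Sec23a, after its start, against 0.714% of all genes. No motif overlapped another. A match describes the letters in a window and is not evidence of binding.

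Several members exist in 2 related forms, and the ratio of the forms within a library does not depend on how libraries are scaled. The log2 ratio of counts, with 0.5 added to each, was compared between populations by an exact two-sided permutation test with labels exchanged within each diet (225 arrangements, smallest possible p = 0.00444), with Benjamini-Hochberg adjustment over the 10 pairs tested. In 5 of 10 pairs the ratio differed, each with an adjusted p of 0.0267. The ratios use the same counts as the fits above, which called Ero1lb, Sec24d, Sec61a2 and Stt3a, so they are not separate support for those calls. The Sec61a2 value is uncertain, as given above, and Sec61a1 and Sec24c also share exon bases with an opposite-strand gene (549 and 214 bases). Relative to control cells, macula densa cells had proportionally less Ero1l to Ero1lb (difference of -1.32), Sec31a to Sec31b (-1.04), Sec24c to Sec24d (-0.75) and Sec61a1 to Sec61a2 (-0.73), and more Stt3a to Stt3b (0.45). In each of these 5 pairs the form that was rarer in control cells took a larger share in macula densa cells. This was read only after the ratios were seen and was not tested. Among pairs that did not pass, the rarer form took a smaller share for Sec24a to Sec24b and Sec23a to Sec23b. It took a larger share for Sar1a to Sar1b.

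The Stt3a to Stt3b ratio shows the separation within each diet. On control diet it was -0.49 and -0.37 in macula densa libraries and -0.78 to -0.54 in control cells, and on low salt with enalapril -0.74 and -0.61 against -1.61 to -1.13. The Sec61a1 to Sec61a2 ratio was 2.26 and 2.28 against 2.42 to 3.11 on control diet, and 1.71 and 2.06 against 2.52 to 3.44 on low salt with enalapril, so in both pairs the populations did not overlap on either diet. For Ero1l to Ero1lb, 1 macula densa library on low salt with enalapril (1.55) lay inside the control-cell range of 1.27 to 1.90, while the other was 0.11. The remaining pairs did not pass: Sec11a to Sec11c differed by 0.94 (adjusted p = 0.104), Sar1a to Sar1b by -0.40, Sec24a to Sec24b by -0.28, Sec23a to Sec23b by -0.14 and Canx to Calr by 0.28. The count of 5 pairs fell to 0 without macula densa replicate 1 on low salt with enalapril. It fell to 3 without macula densa replicate 2 on either diet. Leaving out a library also leaves fewer arrangements, so the smallest possible p is larger, and the part of this was not tested. When only the pairs with at least 10 counts of each gene in every library were kept, 2 passed.

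**Figure D5:**
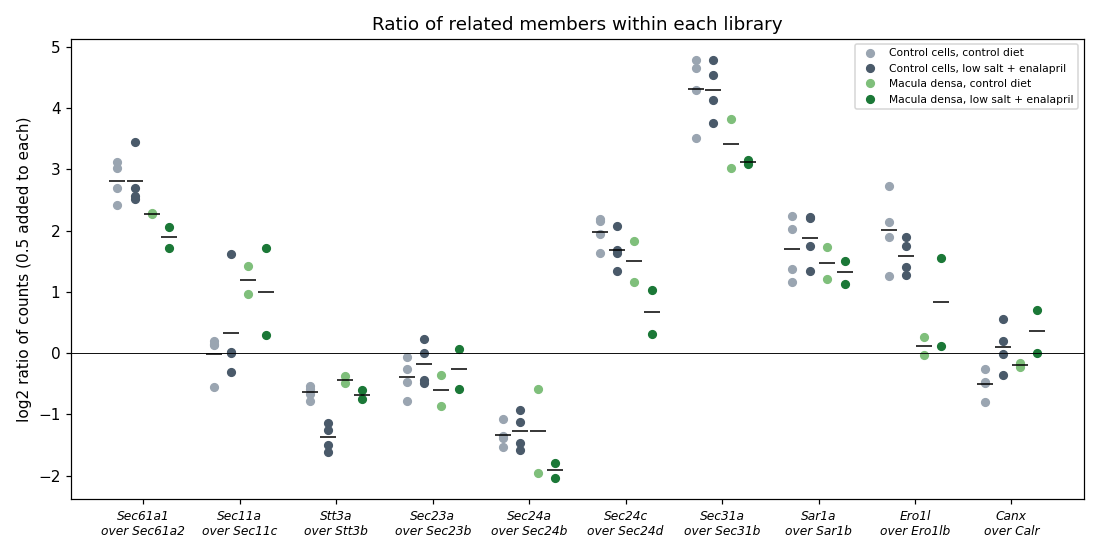
Log2 ratio of the counts of 10 pairs of related genes (y axis, 0.5 added to each count) in each library, coloured by group, with short bars at group means; pairs are along the x axis. The Stt3a to Stt3b ratio in macula densa libraries (-0.74 to -0.37) and the Sec61a1 to Sec61a2 ratio (1.71 to 2.28) did not overlap the control cells of the same diet.

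Other genes of the pathway were read from 5 lists written with earlier results of these data known. Between the populations over both diets, 7.48% of all genes were called higher in macula densa cells and 13.9% lower. Among 23 tested ER chaperones and unfolded protein response genes, 2 were higher in this comparison and 2 lower. The list had a median log2 fold change of 0.26. The higher ones were Dnajb9, a co-chaperone of BiP (12.9 ± 1.25 against 7.83 ± 1.47 CPM on control diet, log2 fold change 0.84 ± 0.20, edgeR adjusted p = 0.0114), and Sil1, the exchange factor of BiP (0.76 ± 0.22, adjusted p = 0.0315). The lower ones belong to the translation arm of the response: Ppp1r15a, which directs dephosphorylation of eIF2 alpha, at -1.57 ± 0.22 (adjusted p = 0.000705), and the transcription factor Atf4 at -0.90 ± 0.19 (adjusted p = 0.00612). Ppp1r15a measured 6.33 ± 0.192 CPM in macula densa cells (SD) and 23.0 ± 5.35 CPM in control cells on control diet. On control diet alone Herpud1, an ER membrane protein of the degradation pathway, was called higher (2.01 ± 0.55, adjusted p = 0.0476) and Dnajc10, an ER disulfide reductase, on low salt with enalapril (0.73 ± 0.20, adjusted p = 0.0438). The Herpud1 call was lost without any of 9 libraries and kept only without control-cell replicate 4 on control diet or replicate 3 or 4 on low salt with enalapril, and the Dnajc10 call was kept only without control-cell replicate 4 on control diet or replicate 3 on low salt with enalapril.

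Cargo receptors and regulators of COPII traffic counted 4 higher and 0 lower of 26 tested. These were Lman1, a lectin receptor for glycoproteins leaving the ER (59.2 ± 3.23 CPM against 35.7 ± 9.49 CPM on control diet, log2 fold change 0.80 ± 0.16, edgeR adjusted p = 0.00457), Ergic3 (0.67 ± 0.15, adjusted p = 0.00761), the vesicle SNARE Bet1 (1.18 ± 0.26, adjusted p = 0.00864) and the p24 family member Tmed3 (0.70 ± 0.19, adjusted p = 0.0221). In the glycan trimming list 2 of 18 were higher and 0 lower: Mogs, the glucosidase that makes the first cut on an N-glycan (0.79 ± 0.20, adjusted p = 0.0149), and Selenos (0.58 ± 0.17, adjusted p = 0.0334). Among 22 other thiol and prolyl isomerases 2 were higher, Txndc5 (0.95 ± 0.18, adjusted p = 0.00361) and Tmx4 (0.78 ± 0.19, adjusted p = 0.0148), and 3 lower, Qsox1 (-0.98 ± 0.25, adjusted p = 0.0166), the collagen prolyl hydroxylase P4ha2 (-2.12 ± 0.57, adjusted p = 0.0203) and Fkbp7, which had 0 to 2 counts in each macula densa library and 3 to 17 in control cells. Among 22 other oligosaccharyltransferase, translocon and insertion genes 1 was higher, the oxidoreductase subunit Tusc3 (0.69 ± 0.21, adjusted p = 0.0343), and 1 lower, Bag6, which escorts tail-anchored proteins (-0.44 ± 0.13, adjusted p = 0.0359). As given above, 7.48% of all genes were called higher in this comparison and 13.9% lower.

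Calls of these list genes over both diets that stood without each library in turn were those of Ppp1r15a, Atf4, Lman1, Ergic3 and Txndc5, and of Fkbp7 in the 10 of 12 fits that tested it. Dnajb9, P4ha2 and Tmx4 lost theirs without macula densa replicate 2 of either diet, Bet1 without macula densa replicate 2 on low salt with enalapril and Mogs without replicate 2 on control diet. Qsox1 and Tmed3 lost theirs without either macula densa library on control diet or replicate 1 on low salt with enalapril. Sil1 lost its call without any of 6 libraries: those 3 macula densa libraries, control-cell replicates 1 and 3 on control diet and replicate 4 on low salt with enalapril. The calls of Bag6, Selenos and Tusc3 rested on most libraries, being lost without any of 8, 9 and 9 of the 12 (adjusted p up to 0.159). Bag6 kept its call without control-cell replicate 4 on control diet, without macula densa replicate 1 on low salt with enalapril, and without control-cell replicate 1 or 3 on that diet. Selenos kept it without control-cell replicate 4 on control diet or 1 or 3 on low salt with enalapril, and Tusc3 without control-cell replicate 2 or 4 on control diet or 4 on low salt with enalapril.

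On single diets 4 list genes were called on control diet and 9 on low salt with enalapril. On control diet these were Herpud1 (above) and Selenos (0.96 ± 0.23, edgeR adjusted p = 0.0328), which were higher, and Ppp1r15a (-1.86 ± 0.32, adjusted p = 0.00673) and the prolyl isomerase Ppic, which were lower. For Ppic the macula densa level was 1.62 ± 0.122 CPM (SD, n = 2; 15 and 21 counts) and the control-cell level 6.39 ± 1.68 CPM (n = 4), without overlap (-1.96 ± 0.51, edgeR adjusted p = 0.0425). On low salt with enalapril Bet1 (1.72), Txndc5 (1.14), Mogs (1.12), Ergic3 (0.89), Lman1 (0.87) and Dnajc10 (above) were higher, and Atf4 (-1.23), Ppp1r15a (-1.28) and Fkbp7 were lower. As given above, 2.69% and 3.15% of all genes were called higher on these diets and 3.92% and 4.13% lower. Each of the 13 calls was lost without at least 1 library. The Ppic call was lost without any of 8 libraries and kept without control-cell replicate 4 on control diet, replicate 3 on low salt with enalapril or either macula densa library on that diet. Ppp1r15a lost its control-diet call without either macula densa library on that diet, and Selenos without those or control-cell replicate 1, 2 or 3. With low salt and enalapril, Atf4 and Txndc5 lost theirs without either macula densa library on that diet, Bet1 without replicate 2 alone, and Ergic3 without either of them or control-cell replicate 4. Ppp1r15a lost its call there without either of those macula densa libraries, control-cell replicate 1 or 4, or control-cell replicate 3 on control diet, and Mogs without any of the 6 libraries on low salt with enalapril. Lman1 kept its call only without control-cell replicate 1 or 4 on control diet, and Fkbp7 in 4 of the 10 fits that tested it, those without either macula densa library or control-cell replicate 4 on control diet or without control-cell replicate 3 on low salt with enalapril.

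None of the genes in the 5 lists passed the adjusted threshold between diets in either population in the edgeR fit. In control cells the smallest p-value of these lists belonged to Hsp90b1, the ER form of Hsp90, at 259 ± 36.7 CPM on control diet and 133 ± 26.0 CPM (SD) on low salt with enalapril (-0.97 ± 0.21 on the log2 scale, edgeR adjusted p = 0.346). DESeq2, run as an alternative, called Hsp90b1 lower (adjusted p = 0.00632) and did not call Hspa5, Hyou1 or Sdf2l1, named next. The list of chaperones and unfolded protein response genes had 1 gene higher and 6 lower of 23 at an unadjusted p under 0.05, against 4.01% and 2.44% of all genes. The 6 included Hspa5, which encodes BiP (-0.83), Hyou1 (-0.66) and Sdf2l1 (-1.41), chosen after their values were seen. In macula densa cells the same genes had -0.72 (Hsp90b1), -0.70 (Hspa5), -0.55 (Hyou1) and 0.10 (Sdf2l1) on the log2 scale, each with an adjusted p of 0.399 or more.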

How the data were processed

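In the table that was deposited, 16.07% of the values were not whole numbers, so they were taken as estimated counts and rounded before testing. Per the submitters' processing notes, STAR 2.61, Partek and the build mm10 were used; whether counting used strand is not given in the sources used here. Per the labels, all libraries were made simultaneously with the SMARTer Stranded Total-RNA Pico chemistry. The smallest sum of a gene over the 12 libraries was 10, and 0 columns lacked a sample. Gene coordinates are those of GENCODE M21 (GRCm38), which 23351 of 23378 genes and all 53 members matched once 1 was subtracted from each end.

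Genes were filtered with filterByExpr of edgeR 4.0.16 (R 4.3.3; count minimum 10, total minimum 15), scaled with TMM and fitted by quasi-likelihood (glmQLFit, glmQLFTest) with 1 coefficient per group over all 12 libraries. P-values were Benjamini-Hochberg adjusted over all 14180 genes tested at a threshold of 0.05. Fold changes are log2 values, and CPM values use the TMM-scaled library totals. Ratios of related genes were tested by exact permutation within diet. The fit was tested on simulated data. Alternatives were DESeq2 1.42.0 (its size factors in the edgeR fit, and its Wald test), scaling by library totals, filtering nothing or requiring a mean CPM of 5, fits of only the groups compared, a block for each kind of number that the labels carry, and fits without each library.

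Chi-square tests of counts over the 14 pairs of libraries within groups found no library deposited more than once in a group. Pairs across groups were not compared in this way. Exon bases were shared with an opposite-strand gene in 17 members and with a same-strand gene in 4, 1 of which (for Srprb) is in the table. Besides Sec61a2, the 17 include Srp9 (784 bases), Sec61a1 (549), Sec62 (509), Sec24c (214), Srpr (89) and Pdia3 (18). Their values carry the same uncertainty about strand. Named in full were all members called in any comparison, the member with the largest mean CPM of each role, and the 3 smallest p-values where none was called; of the other pathway lists, those called, at most the 4 with the smallest p per list and comparison; P4ha2 was named beyond this, after its value was seen. Members and lists were chosen with earlier results of these data known. Promoter sequences are from RefSeq (GRCm38.p6). Counts of reads, which carry no molecular identifier here, need not be independent molecules, so no counting interval is given.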

Additional observations from a re-analysis of the deposited data

Results flagged for a closer look

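In 40 sets of 4 control-cell libraries, formed by 20 named genes on 2 diets, a single library was compared with the other 3, and chance alone would set about 2 of 40 apart. On low salt with enalapril Srp54c stood at 1.77 log2 CPM in control-cell replicate 2, against 2.75 to 2.91 in the other 3 libraries. On the same diet Pdia6 stood at 3.37 log2 CPM in control-cell replicate 3, against 4.20 to 4.33 in the others. Replicate 2 is the library with the fewest counts for the members (3826), and Srp54c has 2 near-identical copies and counts that were not whole. The part of depth and of the copies in these values was not tested.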

How the results depend on the processing

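For macula densa against control cells over both diets, the count of 9 members called was 18 with library totals alone and 4 with no filter on low counts. It was 2 to 14 when libraries were left out one at a time. On control diet the count of 1 was 2 with library totals alone, 0 with only the groups compared, 2 with the DESeq2 Wald test and 0 to 2 with libraries left out. On low salt with enalapril the count of 2 was 8 with library totals alone, 0 with no filter, 1 with only the groups compared, 6 with the DESeq2 Wald test and 0 to 4 with libraries left out. Between diets in control cells the count of 0 was 1 with the DESeq2 Wald test (Calr, lower). The diet comparison in macula densa cells and the difference of the diet effects gave 0 under all 19 alternatives each. The cause of these shifts was not tested. Of the 9 genes called over both diets, Ero1lb kept its call in all 18 alternatives that tested it (adjusted p = 0.000147 to 0.0435) and each of the other 8 lost it in at least 3, with no change of direction. The 5 ratios of related genes that passed were 2 among pairs with at least 10 counts in every library and 0 to 6 with libraries left out. Numbers in the labels were not used to pair the samples in the main fit. Libraries sharing a number after rep had correlated deviations of -0.378 to 0.278. For the 4 pairs of 1 macula densa and 1 control-cell library sharing a number in the descriptions, the values were -0.0371 to 0.227. That number may or may not name an animal. The 4 values cannot decide this, since the deviations of 2 libraries from their group mean mirror each other. With the replicate block on the rep number the counts of members called were 2 over both diets, 0 under control diet and 0 under low salt with enalapril, and with the block on the description number 11, 1 and 6; labels swapped within the description number gave 0 ratios past the threshold, the smallest possible p being 0.125. The diet is nested in the description number, so the diet comparisons could not be fitted with it. A setting that leaves a macula densa group with 1 library assumes that this library varies like the others. Sec61b, Sec61g, Ero1lb, Sec31b, Sec61a2 and Pdia5 had a library with 5 or fewer counts, which limits their precision.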

Other observations

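The Stt3a to Stt3b ratio also separated the diets within the control cells, a comparison chosen after the values were seen and not tested. Control cells on control diet lay between -0.78 and -0.54 log2 units and those on low salt with enalapril between -1.61 and -1.13. Stt3b itself measured 28.9 ± 2.93 CPM and 29.4 ± 3.76 CPM (SD, n = 4) on these diets, while Stt3a measured 18.4 ± 0.638 CPM and 11.4 ± 2.18 CPM. The Canx to Calr ratio in control cells was -0.79 to -0.26 on control diet and -0.35 to 0.56 on low salt with enalapril, which overlapped.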
